A study of Mus musculus with 18 samples.

Results

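Lrp2, Miox and Calb1 are transcripts used to mark segments of the kidney tubule, and 7 of the 16128 probes on these mouse arrays had one of them as their only annotated symbol. They are 3 of the 7117 genes so annotated. Lrp2 (Entrez gene 14725) had 2 probes, numbered 11897 and 13687. Miox (Entrez gene 56727) had 1 probe, numbered 10748, and Calb1 (Entrez gene 12307) had 4, numbered 477, 1839, 4340 and 9384. For these genes every probe with the symbol was taken. Testing asked for values on 15 or more of the 18 arrays, with no group left empty, and 6 of the 7 met this. Calb1 477 had values on 13 arrays and none in normoxia at 2 weeks, so its ratios are described without a test.

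Lrp2 encodes megalin, a very large endocytic receptor on the apical membrane of proximal tubule cells. Megalin retrieves filtered proteins, hormones and vitamin carriers from the tubular fluid together with its partner cubilin. Miox encodes myo-inositol oxygenase, which opens the ring of myo-inositol to give glucuronate, and in the kidney it is made mainly by proximal tubule cells. Calb1 encodes calbindin, a cytosolic calcium-binding protein of the distal convoluted and connecting tubule. It buffers and carries calcium from the entry channel Trpv5 at the apical side to the pump Atp2b1 and the exchanger Slc8a1 at the basolateral side. In mice the last nephrons form after birth, and tubule segments go on maturing through the weeks studied here.

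The kidneys came from pups of CD1, an outbred stock, whose litters were divided on postnatal day 2 for 1, 2 or 4 weeks of exposure. Constant hypoxia meant 11% oxygen throughout, intermittent hypoxia meant a switch between 21% and 11% oxygen every 4 min, and normoxia meant room air. Each of the 9 combinations had 2 arrays, called A and B here, so every group value rests on 2 hybridisations. On each array, kidney cDNA of a mouse labelled male (Cy5) was set against that of a mouse labelled female (Cy3) kept under the same oxygen, with no array of exchanged dyes.

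The deposited value is a log2 ratio of those channels, given below relative to the median of its array. A ratio holds no level of a transcript, and a response shared equally by both animals leaves it unchanged. The data therefore cannot show how much megalin, Miox or calbindin transcript a kidney held, nor can the labelled tissue be checked against its markers by level. The sources used here do not state which channel is divided by which, so a sign is only a sign. In whole kidney, fewer cells of a segment and less RNA per cell cannot be told apart.

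Constant hypoxia arrays had values for 81.8% to 88.8% of probes, against 42.9% to 65.7% in intermittent hypoxia and 41.0% to 67.9% in normoxia. Their medians as deposited ran between -1.17 and -0.15, whereas all other arrays had medians between -0.07 and 0.09. This difference in footing cannot be told apart from the condition. Labels disagreed on 2 arrays: a 1-week mouse is named for the Cy3 channel of intermittent hypoxia 2 weeks A, and a treatment note says 2 weeks for constant hypoxia 4 weeks A. The Y-linked translation factor gene Eif2s3y gave a further check. Male against female in fixed dyes would keep one sign for it, but its ratio was positive on 11 arrays and negative on 7, between -2.16 (intermittent hypoxia 1 week A) and 1.63 (normoxia 4 weeks B).

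The first Lrp2 probe, 11897, was negative on 14 of 18 arrays. In constant hypoxia its centred log2 ratio was -0.24 (A) and 0.21 (B) at 1 week, 0.06 and -0.53 at 2 weeks, and -0.01 and 0.23 at 4 weeks. In intermittent hypoxia it was -0.54 and -0.17 at 1 week, -0.52 and -0.78 at 2 weeks, and -0.17 and -0.44 at 4 weeks. In normoxia it was -0.80 and -0.59 at 1 week, -0.93 and -0.80 at 2 weeks, and 0.25 and -0.08 at 4 weeks. The constant hypoxia arrays thus lay on both sides of 0, the intermittent hypoxia arrays were all below it, and in normoxia the 4-week arrays stood above the other four. At 1 and 2 weeks every constant hypoxia array was above every normoxia array, whereas at 4 weeks the ranges overlapped. How often the few arrays of groups separate like this was not counted over all tested probes, here or for the probes below. The arrays of a pair differed by 0.13 (normoxia 2 weeks) to 0.59 (constant hypoxia 2 weeks).

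The other Lrp2 probe, 13687, gave a different picture. It was positive on 13 of 17 arrays. Constant hypoxia arrays had 0.06 and 0.25 at 1 week, 0.08 and 0.08 at 2 weeks, and 0.52 and 0.03 at 4 weeks. Intermittent hypoxia arrays had 0.16 and 0.17 at 1 week, 0.60 on the single array with a value at 2 weeks, and -0.21 and -0.28 at 4 weeks. Normoxia arrays had 0.08 and -0.16 at 1 week, -0.19 and 0.58 at 2 weeks, and 0.03 and 0.12 at 4 weeks. The ranges of the 3 conditions overlapped, and at 4 weeks both intermittent hypoxia arrays lay below the arrays of the other conditions. Its ratios did not follow those of the first probe across arrays (r = -0.05 over 17 arrays).

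Miox was the most evenly spread around 0, positive on 9 arrays and negative on 8. Constant hypoxia arrays had 0.06 and 0.53 at 1 week, 0.30 and -0.30 at 2 weeks, and 0.35 on the single array with a value at 4 weeks. Intermittent hypoxia arrays had -0.12 and -0.55 at 1 week, -0.39 and 0.13 at 2 weeks, and -0.03 and 0.33 at 4 weeks. Normoxia arrays had -0.17 and 0.74 at 1 week, -0.32 and -0.45 at 2 weeks, and 0.02 and 0.49 at 4 weeks. The widest gap within a pair, 0.91 in normoxia at 1 week, exceeded the median gap of 0.27 over all tested probes in that pair. The ranges of the 3 conditions overlapped.

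The Calb1 probes 4340 and 477 each had their lowest ratio in constant hypoxia at 4 weeks. On constant hypoxia arrays probe 4340 had 0.06 and -0.05 at 1 week, 0.01 and 0.08 at 2 weeks, and -0.59 and -0.73 at 4 weeks. On intermittent hypoxia arrays it had 0.08 and -0.18, 0.32 and -0.51, and -0.01 and 0.52 at the same durations, and on normoxia arrays -0.06 and 0.28, 0.16 and 0.39, and 0.03 and -0.61. The lowest of the 18 arrays were the 2 constant hypoxia arrays at 4 weeks and normoxia 4 weeks B, and both 4-week constant hypoxia arrays lay below the 4 arrays of the shorter durations.

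Probe 477 had -0.16 and 0.02 at 1 week, -0.56 and -0.27 at 2 weeks, and -1.10 and -0.84 at 4 weeks of constant hypoxia. In intermittent hypoxia it had 0.31 on the single array at 1 week, -0.47 on the single array at 2 weeks, and -0.04 and 0.25 at 4 weeks. In normoxia it had -0.40 and -0.26 at 1 week and -0.07 on the single array at 4 weeks. Both 4-week constant hypoxia arrays were below every other array of this probe. The running median of neighbouring probe numbers around it was -0.55 and -0.25 on those arrays.

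Calb1 9384 was positive on 13 of 17 arrays. Constant hypoxia arrays had 0.36 and -0.07 at 1 week, 0.11 and 0.31 at 2 weeks, and -0.23 and -0.09 at 4 weeks. All 5 intermittent hypoxia arrays with a value were positive, with 0.65 on the single array at 1 week, 0.47 and 0.44 at 2 weeks, and 0.22 and 0.49 at 4 weeks. Normoxia arrays had 0.05 and 0.70 at 1 week, 0.41 and 0.30 at 2 weeks, and 0.08 and -0.36 at 4 weeks. The intermittent hypoxia arrays kept within a narrower band than the others, although normoxia 1 week B was higher than all of them.

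Calb1 1839 was close to 0 in constant hypoxia, between -0.08 and 0.18 on 6 arrays with a median of 0.01. It ran from -1.10 to 0.86 on 5 intermittent hypoxia arrays and from -0.10 to 0.36 on 5 normoxia arrays. The intermittent hypoxia pair at 1 week, with 0.40 on A and -1.10 on B, lay far apart for a pair whose median gap over all tested probes was 0.22. Both extremes of this probe were thus intermittent hypoxia arrays. The running median of neighbouring probe numbers around it was 0.73 on the highest, 2 weeks B, and 0.21 on the lowest, 1 week B.

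**Figure D1:**
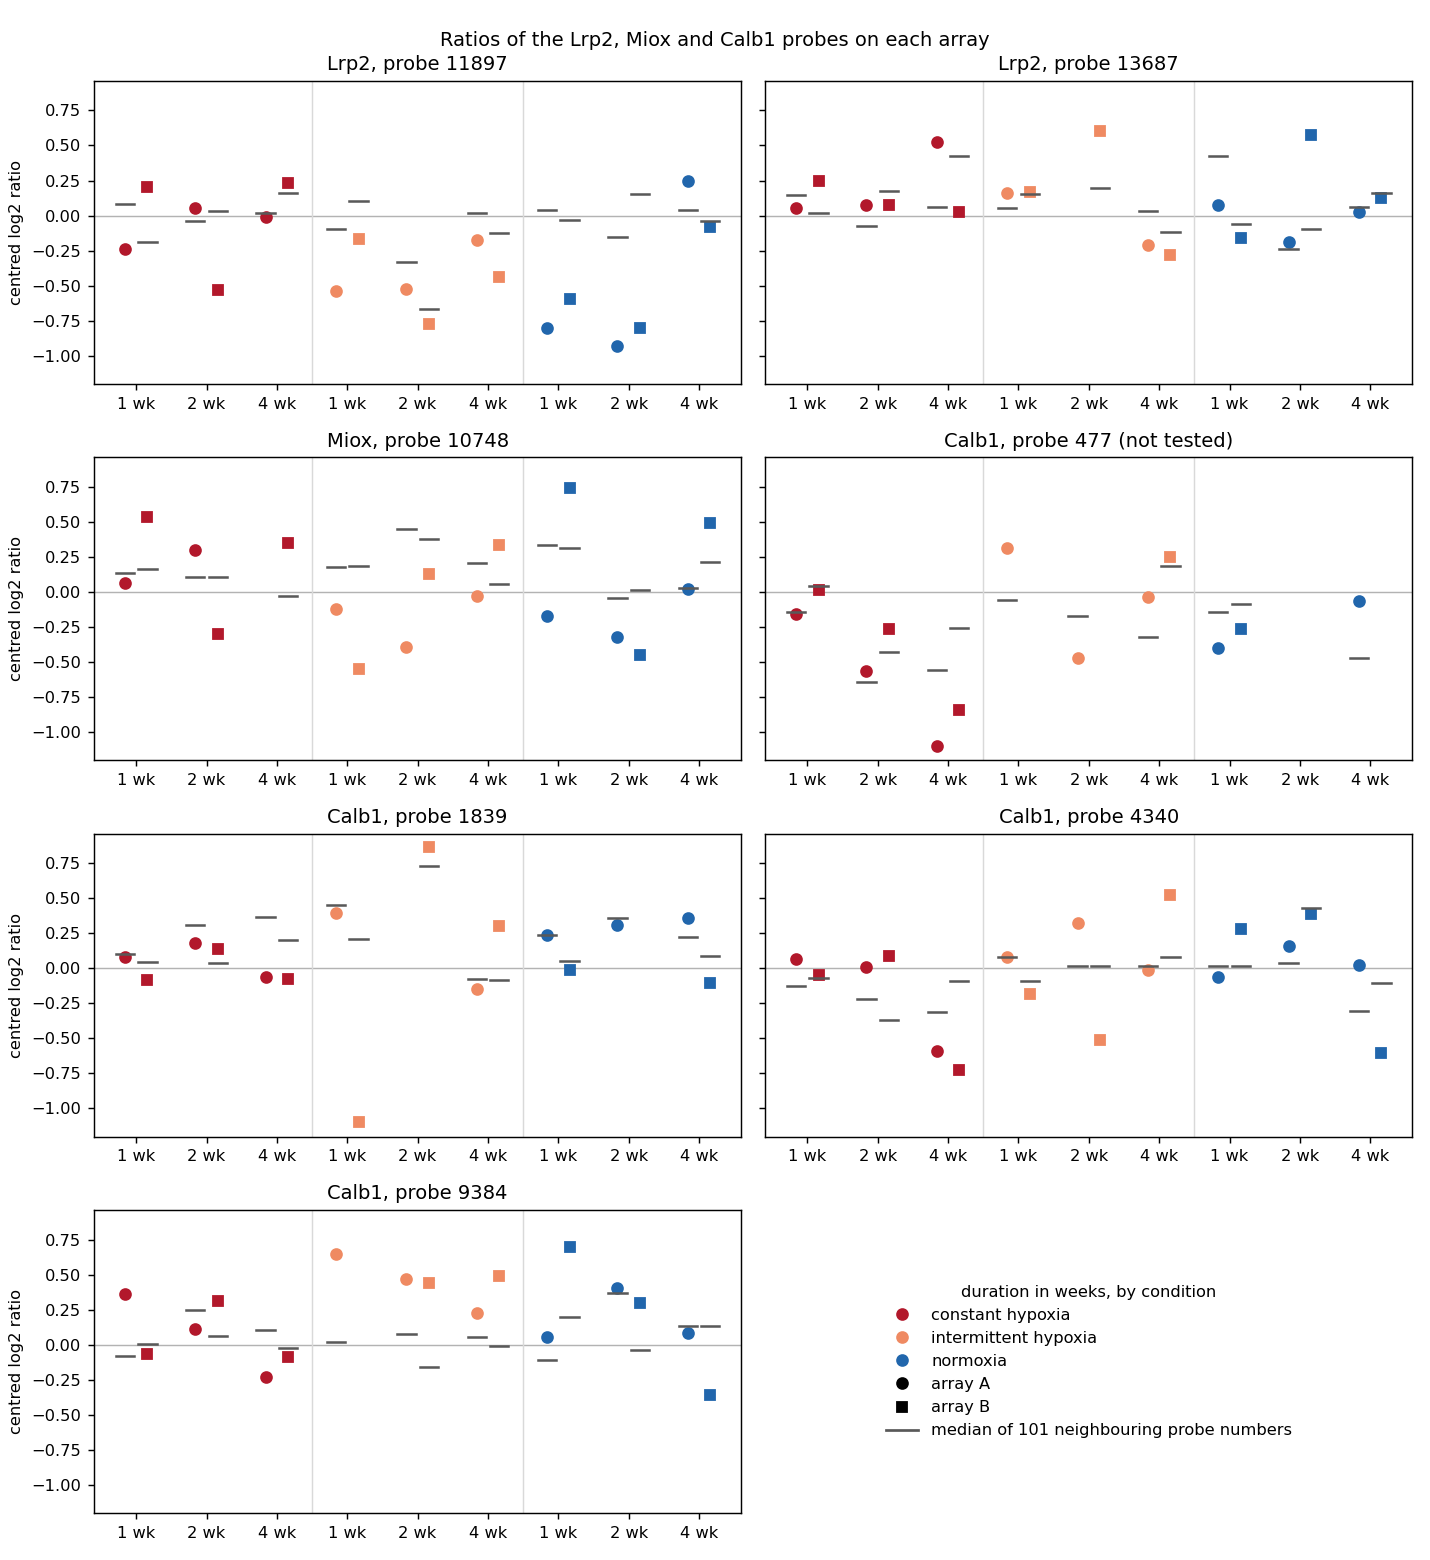
Centred log2 ratio (vertical axis) of each of the 7 probes on every array with a value, by condition and duration in weeks (horizontal axis); circles are array A, squares array B, and grey bars the running median of neighbouring probe numbers on that array. Lrp2 11897 is negative throughout intermittent hypoxia (-0.78 to -0.17), and Calb1 477 and 4340 each have their lowest value on a constant hypoxia array at 4 weeks.

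Over all arrays the tested probes had standard deviations of 0.26 (Lrp2 13687), 0.30 (Calb1 9384), 0.36 (Calb1 4340), 0.38 (Miox), 0.39 (Lrp2 11897) and 0.41 (Calb1 1839). The median over all 6518 tested probes was 0.32. The tubule markers were therefore neither the steadiest nor the most variable probes: 26.5% of tested probes had a smaller spread than Lrp2 13687, and 72.9% had a smaller one than Calb1 1839.

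Whether a probe leaned to one channel was asked with the mean ratio of a condition over its 3 durations, tested against 0 with limma and called at an adjusted p under 0.05. Of 18 such tests on the 6 probes, 3 were called: Lrp2 11897 in intermittent hypoxia and in normoxia, and Calb1 9384 in intermittent hypoxia. In constant hypoxia 0 of 6 probes were called (0 at unadjusted p under 0.05), and limma called 18.7% of all tested probes. Calls covered 2 of 6 probes in intermittent hypoxia, against 5.58% of all tested probes, and 1 of 6 in normoxia, against 3.61%. Dyes were not exchanged, so a probe's own dye preference is part of these means.

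For Lrp2 11897 the mean ratio was -0.05 in constant hypoxia (SE 0.11, limma adjusted p = 0.778, 6 arrays). It was -0.44 in intermittent hypoxia (SE 0.11, limma adjusted p = 0.0330, negative on 6 of 6 arrays) and -0.49 in normoxia (SE 0.11, limma adjusted p = 0.0288, negative on 5 of 6 arrays). A mean past the threshold in normoxia and not in constant hypoxia does not show a difference between them, which was tested separately. With any 1 normoxia array left out the normoxia mean lost its call, at limma adjusted p between 0.0515 and 0.135. The intermittent hypoxia mean lost its call without any 1 array of that condition other than 2 weeks A (0.0781 to 0.135). With the median of neighbouring probe numbers removed, the intermittent hypoxia mean was -0.23 and was not called (limma adjusted p = 0.220), whereas the normoxia mean was -0.48 and was (0.0221).

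The second Lrp2 probe had means of 0.17 in constant hypoxia, 0.17 in intermittent hypoxia and 0.08 in normoxia, each of opposite sign to the first probe. None was called (limma adjusted p of 0.280, 0.413 and 0.732). With the Lrp2 probes averaged, the mean ratio was 0.06 in constant hypoxia, -0.22 in intermittent hypoxia and -0.21 in normoxia, and the last pair had limma adjusted p of 0.161 and 0.218. The calls on megalin thus belonged to 1 of its 2 probes.

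Calb1 9384 had a mean of 0.49 in intermittent hypoxia (SE 0.13, limma adjusted p = 0.0400, positive on 5 of 5 arrays). In constant hypoxia it was 0.07 (limma adjusted p = 0.690), and in normoxia 0.20 (0.317). The intermittent hypoxia mean rests on 1 array at 1 week, because array B had no value. It was not called without constant hypoxia 1 week A or B or 2 weeks A or B, or without intermittent hypoxia 1 week B, 2 weeks B, 4 weeks A or 4 weeks B (limma adjusted p of 0.0528 to 0.140). The other tested calbindin probes did not share the call: the intermittent hypoxia mean was 0.20 for probe 1839 and 0.04 for probe 4340 (limma adjusted p of 0.527 and 0.883). Miox had means of 0.22 in constant hypoxia, -0.11 in intermittent hypoxia and 0.05 in normoxia, none called (0.358, 0.670 and 0.863).

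**Figure D2:**
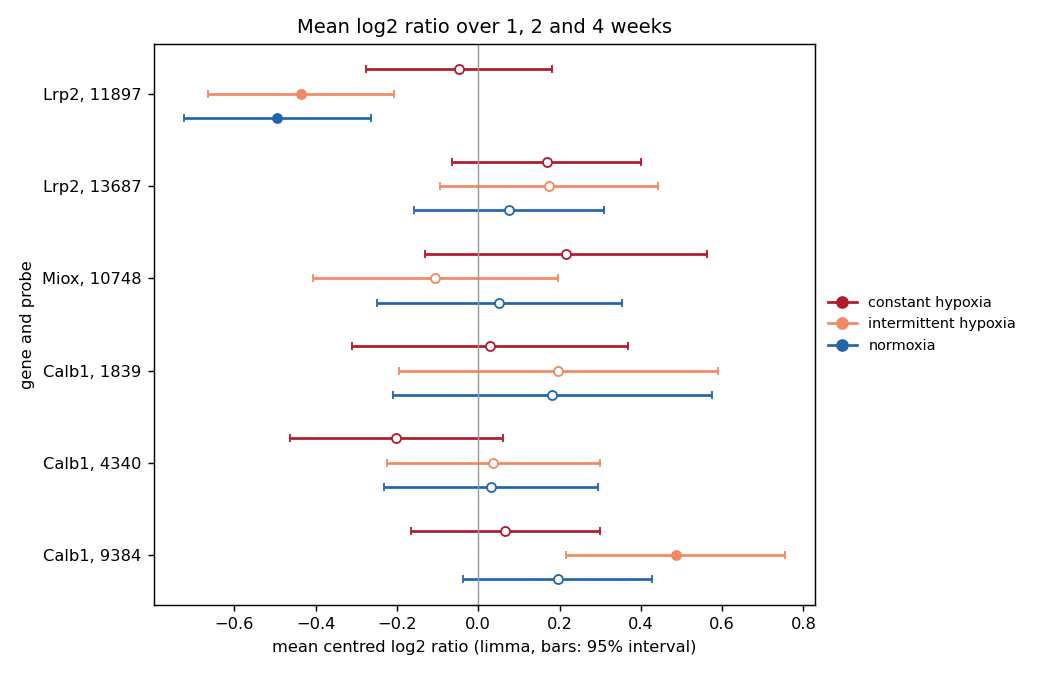
Mean centred log2 ratio over 1, 2 and 4 weeks (horizontal axis) of the 6 tested probes in constant hypoxia, intermittent hypoxia and normoxia; bars are 95% intervals of the limma fit without adjustment for the number of probes, and filled points passed an adjusted p of 0.05. The filled points are Lrp2 11897 at -0.44 and -0.49 and Calb1 9384 at 0.49.

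Ratios in each hypoxia regime were compared with those in room air, and those of the regimes with each other. A change shared equally by both animals of an array would not appear in these comparisons. No ratio of a tubule marker differed past the threshold, as limma called 0 of 72 tests (6 probes in 12 comparisons). Of these tests 6 had an unadjusted p under 0.05, and the smallest limma adjusted p was 0.151. With all arrays in the fit calls were rare among all probes too. For constant hypoxia against normoxia limma called 0.0% of the 6518 probes over all durations (518 at unadjusted p under 0.05) and 0.0% at 1 week (161), with 0.0153% at 2 weeks and 0.0614% at 4 weeks. For intermittent hypoxia against normoxia the shares were 0.0% over all durations (278), 0.0% at 1 week (184), 0.138% at 2 weeks and 0.0% at 4 weeks (586). For intermittent against constant hypoxia they were 0.046% over all durations, 0.0% at 1 week (102), 0.0614% at 2 weeks and 0.0% at 4 weeks (1190).

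These shares of all probes depended on single arrays. Without intermittent hypoxia 2 weeks A, one of the arrays with disagreeing labels, limma called 12.6% of 5338 probes for intermittent hypoxia against normoxia at 2 weeks and 7.91% for intermittent against constant hypoxia. Without both such arrays the shares were 17.4% and 11.7% of 5321 probes. Without constant hypoxia 4 weeks B limma called 11.6% of 6017 probes for constant hypoxia against normoxia over all durations and 12.5% at 4 weeks, and for intermittent against constant hypoxia 13.1% and 16.6%. No Lrp2, Miox or Calb1 probe was called in a condition or duration comparison in any of these fits. Where a group is left with 1 array, that array is assumed to vary like the other groups.

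Lrp2 11897 had the largest difference between constant hypoxia and normoxia. Over all durations it was 0.45 (SE 0.15, 95% interval 0.12 to 0.77, unadjusted p = 0.0103, limma adjusted p = 0.619). It was 0.68 at 1 week and 0.63 at 2 weeks (SE 0.26 each, unadjusted p of 0.0205 and 0.0308, limma adjusted p of 1.00 and 0.405), and 0.03 at 4 weeks. The second Lrp2 probe gave 0.09 over all durations (95% interval -0.24 to 0.42), and the average of both probes gave 0.27 (limma adjusted p = 0.644). On the values as deposited, without centring, the difference of probe 11897 was -0.32, so its sign depended on the centring.

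Miox differed by 0.16 between constant hypoxia and normoxia over all durations (95% interval -0.30 to 0.62, limma adjusted p = 0.856). The tested Calb1 probes all gave negative differences there, of -0.15 for 1839, -0.23 for 4340 and -0.13 for 9384, with intervals that each included 0 (limma adjusted p of 0.713 to 0.882). Over all tested probes the median difference was -0.04.

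Between intermittent hypoxia and normoxia the differences over all durations were small. They were 0.06 and 0.10 for the Lrp2 probes, -0.16 for Miox, and 0.01, 0.01 and 0.29 for Calb1 1839, 4340 and 9384. Limma adjusted p was between 0.996 and 0.998, and the intervals reached as far as -0.58 (Miox) and 0.65 (Calb1 9384). At 1 week Miox differed by -0.62 (SE 0.34, unadjusted p = 0.0927, limma adjusted p = 1.00), with ratios of -0.12 and -0.55 in intermittent hypoxia and -0.17 and 0.74 in normoxia.

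Intermittent against constant hypoxia held 3 of the 6 unadjusted p values under 0.05. Over all durations Lrp2 11897 differed by -0.39 (SE 0.15, 95% interval -0.71 to -0.06) and Calb1 9384 by 0.42 (SE 0.17, 95% interval 0.06 to 0.77), both with a limma adjusted p of 0.379. At 4 weeks Calb1 4340 differed by 0.91 (SE 0.30, 95% interval 0.27 to 1.56, unadjusted p = 0.00857, limma adjusted p = 0.151). Its ratios there were -0.01 and 0.52 in intermittent hypoxia and -0.59 and -0.73 in constant hypoxia. Of all 6518 tested probes 1190 had an unadjusted limma p under 0.05 in this 4-week comparison. The untested probe 477 had -0.04 and 0.25 against -1.10 and -0.84 on the same arrays. The running median of neighbouring probe numbers around 477 was itself -0.32 and 0.18 against -0.55 and -0.25. In the same comparison Calb1 1839 differed by 0.15 (limma adjusted p = 0.878) and 9384 by 0.52 (0.326). Constant hypoxia 4 weeks A is one of the arrays with disagreeing labels.

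**Figure D3:**
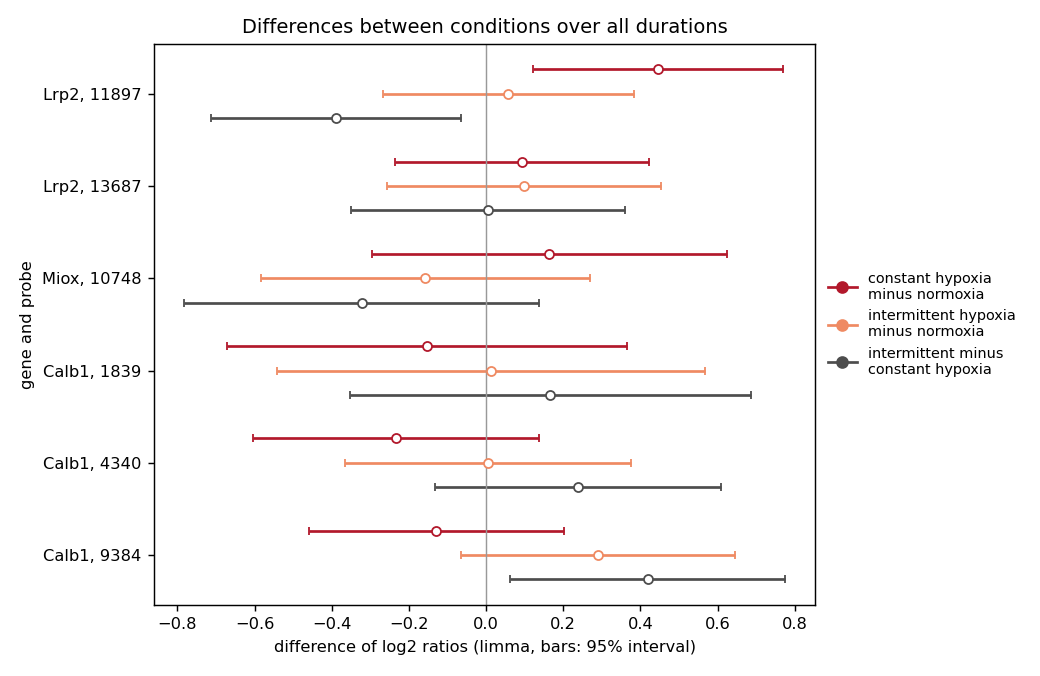
Differences in log2 ratio over all durations (horizontal axis) for the 6 tested probes, drawn as constant hypoxia minus normoxia, intermittent hypoxia minus normoxia and intermittent minus constant hypoxia; bars are 95% intervals of the limma fit, unadjusted, and every point is open because none passed an adjusted p of 0.05. The bars that leave out 0 belong to Lrp2 11897 (0.45 and -0.39) and Calb1 9384 (0.42).

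The durations ask how the ratios moved from 1 to 4 weeks within a condition. All exposures began on postnatal day 2, so within a hypoxia condition age and length of exposure cannot be told apart. Limma called 0 of 36 tests on the tubule markers, with 3 at unadjusted p under 0.05 and a smallest adjusted p of 0.452. It called 0.0% of all tested probes in each of the 6 duration comparisons, with 177 to 666 probes at unadjusted p under 0.05. Without constant hypoxia 4 weeks B it called 10.3% to 14.5% of all probes in the 3 of these comparisons that involve constant hypoxia. In normoxia Lrp2 11897 was 0.78 higher at 4 weeks than at 1 week (SE 0.26, 95% interval 0.22 to 1.34, unadjusted p = 0.00982, limma adjusted p = 0.452). The same difference was 0.13 in constant hypoxia and 0.05 in intermittent hypoxia. The change in constant hypoxia minus that in normoxia was -0.65 (SE 0.37, limma adjusted p = 0.999), and in intermittent hypoxia minus normoxia -0.73 (SE 0.37, limma adjusted p = 0.609). For Lrp2 13687 the 4-week minus 1-week difference was 0.12 in normoxia, 0.12 in constant hypoxia and -0.41 in intermittent hypoxia. Its change in constant hypoxia minus that in normoxia was 0.0062, and in intermittent hypoxia minus normoxia -0.53.

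For Calb1 4340 the 4-week minus 1-week difference was -0.67 in constant hypoxia (SE 0.30, 95% interval -1.31 to -0.02, limma adjusted p = 0.469), 0.31 in intermittent hypoxia and -0.40 in normoxia. The change in intermittent minus that in constant hypoxia was 0.97 (SE 0.43, unadjusted p = 0.0377, limma adjusted p = 0.507). In the order constant hypoxia, intermittent hypoxia and normoxia, Calb1 9384 had negative differences in all 3 conditions, -0.30, -0.29 and -0.51. In the same order Calb1 1839 had -0.07, 0.43 and 0.02, and Miox had 0.05, 0.49 and -0.03.

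Probes of a single gene need not respond alike, so agreement was measured as the correlation of ratios over arrays. With Eif2s3y included there were 28 pairs, each tested by permutation and adjusted over the 28. The permutations shuffled arrays freely, although arrays of a group share oxygen and duration. Their p-values, here and for the pairs below, hold only if all arrays are exchangeable, which was not tested. Deviations from the condition means, used below, still hold differences between durations. The Calb1 probes 4340 and 9384 went together, with r = 0.69 (permutation p = 0.00195, adjusted p = 0.0273) and rho = 0.76 (permutation p = 0.00073, adjusted p = 0.0102) over 17 arrays. As a check, here and below, the 2 arrays farthest from the median of the first-named probe were left out. Without them r was 0.55. With all 17 arrays, on deviations from the condition means, it was 0.68 (permutation p adjusted 0.0434). With the neighbouring probe numbers' median removed it was 0.38 (permutation p adjusted 0.388). Probes of other genes had higher r with each, up to 0.87 with 4340 (Fxyd4) and 0.82 with 9384 (Rpl10). How many of all tested probes reach r = 0.69 with either was not counted.

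No other pair of probes of a gene passed the threshold in both r and rho. Calb1 477 and 4340 had r = 0.71 and rho = 0.43 over 13 arrays (permutation p of 0.00701 and 0.140, adjusted 0.0394 and 0.262), and r was 0.20 without the 2 farthest arrays, so the relation rests on those. Calb1 1839 had r of 0.48, 0.14 and 0.49 with 477, 4340 and 9384 (permutation p adjusted 0.215, 0.683 and 0.177). With 4340 its rho was 0.43 (permutation p adjusted 0.215), and r was 0.57 without the 2 farthest arrays. With 9384 its r was 0.67 with the neighbours' median removed (permutation p adjusted 0.0780). Across the proximal genes, Lrp2 11897 and Miox had r = 0.43 and rho = 0.43 over 17 arrays (permutation p of 0.0824 and 0.0862, adjusted 0.180 and 0.206), and Lrp2 13687 and Miox -0.24.

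Proximal and distal markers leaned in opposite directions for one pair. Lrp2 11897 and Calb1 9384 had r = -0.63 and rho = -0.58 over 17 arrays (permutation p of 0.00703 and 0.0168, adjusted 0.0394 and 0.0782), and r was -0.60 without the 2 farthest arrays. On deviations from the condition means it was -0.58 (permutation p adjusted 0.0996), and with the neighbours' median removed -0.44 (0.336). Of the 8 pairs of an Lrp2 probe with a Calb1 probe 7 had negative r, and of the 4 pairs of Miox with Calb1 3 did. These pairs reuse the same probes and arrays, so they are not independent. The share of negative r over all pairs of tested probes was not counted.

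**Figure D4:**
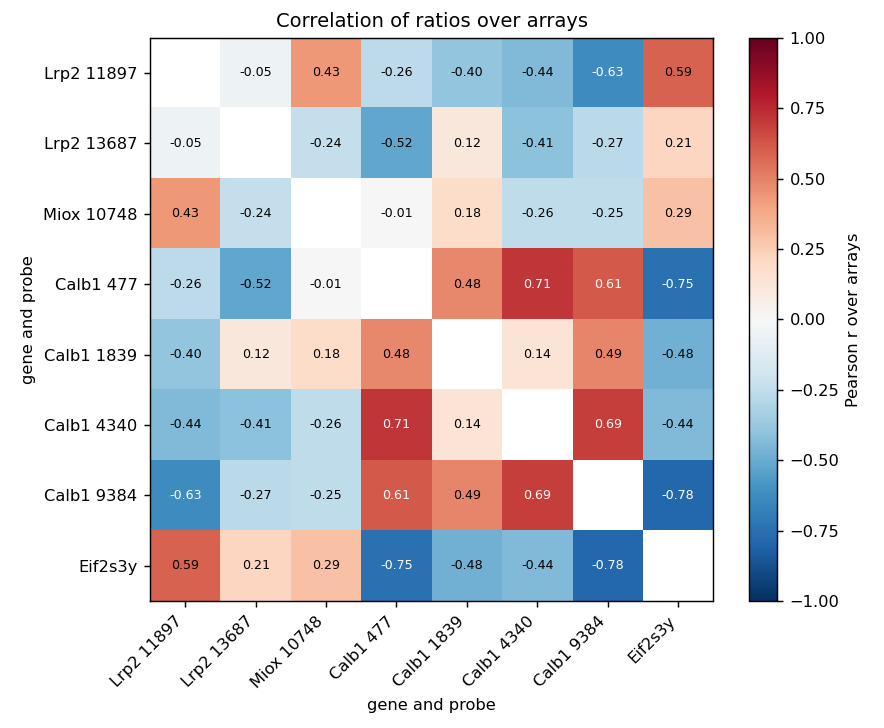
Pearson correlation over arrays (colour and printed value, from -1 to 1) between the 7 tubule probes and the Y-linked Eif2s3y, over the 12 to 18 arrays that each pair shares. The Calb1 probes are positive with one another and negative with Eif2s3y, while the Lrp2 probes have r = -0.05 with each other.

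The ratio of Eif2s3y, whose sign varied over the arrays as given above, gave a larger absolute correlation with Calb1 9384 than any of the other 6 tubule probes, a difference that was not tested. The pair had r = -0.78 (permutation p = 0.00026, adjusted p = 0.00728) and rho = -0.86 (permutation p = 4e-05, adjusted p = 0.00112) over 17 arrays. Relations to Eif2s3y were chosen with earlier results of these data known, so their p-values are not independent tests. Without the 2 arrays farthest from the median of Calb1 9384, a choice that does not look at Eif2s3y, r was -0.69. It was -0.68 on deviations from the condition means (permutation p adjusted 0.0434) and -0.73 with the neighbours' median removed (0.0272). Within constant hypoxia it was -0.68 and within normoxia -0.67, each over 6 arrays and without passing the threshold (permutation p adjusted 0.368 and 0.661), and intermittent hypoxia had only 5 shared arrays.

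The highest Calb1 9384 ratio, 0.70 on normoxia 1 week B, came with an Eif2s3y ratio of -0.07. Next were 0.65 on intermittent hypoxia 1 week A, where Eif2s3y was -2.16, and 0.49 on intermittent hypoxia 4 weeks B, where it was -1.62. The lowest was -0.36 on normoxia 4 weeks B, where Eif2s3y was 1.63. Among the 6517 tested probes other than Eif2s3y the median r with it was -0.07, and 0.0921%, Calb1 9384 included, had an r at or below that of Calb1 9384. All 4 calbindin probes had negative r with Eif2s3y: -0.75 for 477 (rho = -0.62, permutation p of 0.00354 and 0.0277, adjusted 0.0330 and 0.104), -0.48 for 1839 and -0.44 for 4340 (permutation p adjusted 0.177 each). Of the 6517 probes 4.99% had an r at or below that of 1839, and 7.10% at or below that of 4340.

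Lrp2 11897 had r = 0.59 and rho = 0.58 with Eif2s3y over 18 arrays (permutation p of 0.00963 and 0.0124, adjusted 0.0449 and 0.0693). The Eif2s3y probe is numbered 11844, near the Lrp2 probe, and with the median of neighbouring probe numbers removed r was 0.39 (permutation p adjusted 0.381). Lrp2 13687 and Miox had r of 0.21 and 0.29 with Eif2s3y (permutation p adjusted 0.506 and 0.429). The part of the labelled sexes in these relations was not tested.

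**Figure D5:**
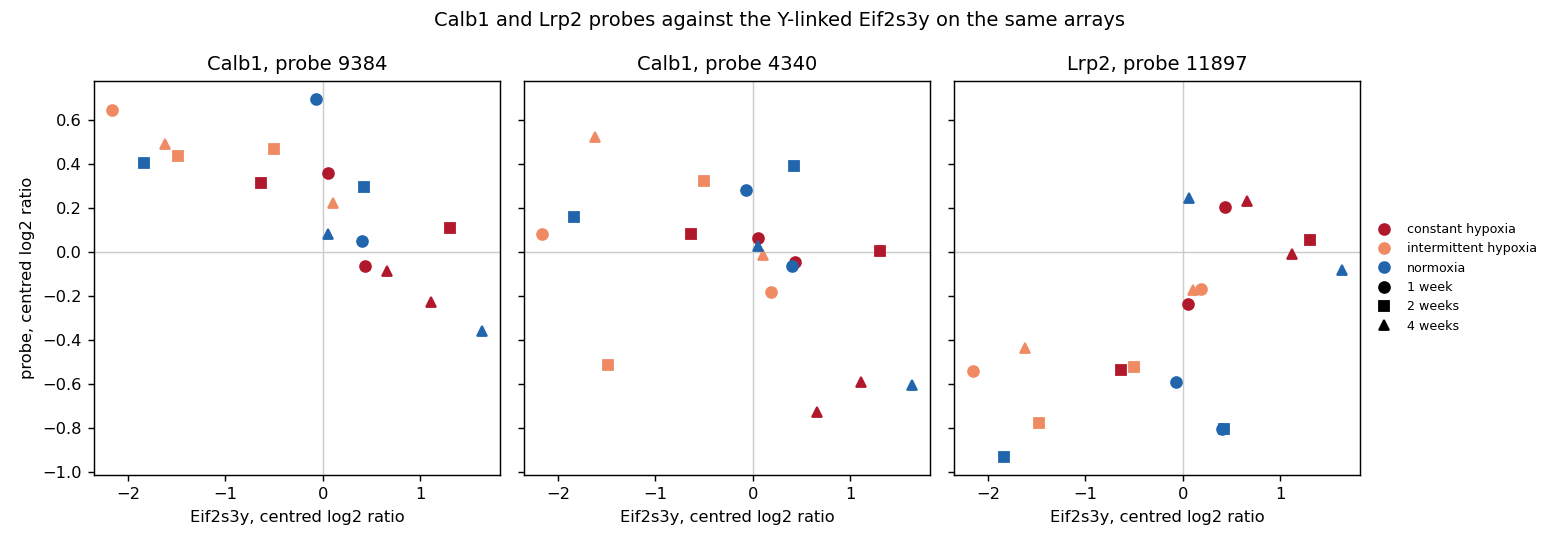
Centred log2 ratio of Calb1 9384, Calb1 4340 and Lrp2 11897 (vertical axes) against that of Eif2s3y (horizontal axes) on the same arrays; colours are conditions and shapes durations. Calb1 9384 goes down as Eif2s3y goes up (r = -0.78), and Lrp2 11897 goes up with it (r = 0.59).

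Other genes of the same segments and pathways were taken from lists. Of 38 proximal tubule symbols 7 were tested, with 8 probes, 3 of which are the Lrp2 and Miox probes. Limma called 0 of the other 5 in any condition comparison over all durations (1 at unadjusted p under 0.05 for constant hypoxia against normoxia and 2 for intermittent against constant hypoxia). The median difference between constant hypoxia and normoxia was 0.23 over these 5 probes, against -0.04 over all tested probes, and 3 of 5 were positive. The scaffold gene Pdzk1, which anchors apical transporters, had 0.35 (SE 0.17, limma adjusted p = 0.630), and Spp2, a secreted phosphoprotein, -0.32 (SE 0.14, limma adjusted p = 0.619). In constant hypoxia the organic anion transporter Slc22a7 had a called mean ratio of 0.35 (SE 0.10, limma adjusted p = 0.0270). The call was lost without any 1 constant hypoxia array other than 4 weeks B (0.0645 to 0.113).

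The megalin partners are the proteins that fold, bind or internalise the receptor, and 6 of 10 symbols were tested with 11 probes. Over all durations limma called 0 of 11 between conditions (2 at unadjusted p under 0.05 for constant hypoxia against normoxia and 1 for intermittent hypoxia against normoxia), with a median of -0.02 for constant hypoxia minus normoxia and 0.07 for intermittent hypoxia minus normoxia. One probe of Cltc, the clathrin heavy chain of the coat that takes megalin inward, was called at 2 weeks in intermittent hypoxia against normoxia. Probe 13156 had 1.32 on the single intermittent hypoxia array with a value, against -0.64 and -1.50 in normoxia, a difference of 2.39 (SE 0.36, limma adjusted p = 0.0182). This call rests on that single array, 2 weeks B, which had the widest spread over tested probes of all arrays. It was lost without normoxia 1 week A (limma adjusted p = 0.0530) or 2 weeks B (0.102).

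Called mean ratios in constant hypoxia included Lrpap1, the chaperone that keeps megalin free of ligand on its way to the membrane, at -0.53 (SE 0.11, limma adjusted p = 0.0107). Ap2m1, a clathrin adaptor subunit, had 0.47 and 0.63 on its 2 called probes (limma adjusted p of 0.0237 and 0.0091), and another Cltc probe, 2381, had -0.45 (0.0126). Lrpap1 lost its call without 1 week B or 2 weeks B of constant hypoxia, Cltc 2381 without any 1 array at 1 or 2 weeks, the first Ap2m1 probe without 1 week B, 2 weeks A or 4 weeks B, and the second without 1 week B (limma adjusted p of 0.0508 to 0.124). These partners thus leaned in both directions in a condition where 18.7% of all tested probes were called.

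In the inositol and glucuronate pathway of Miox 5 of 12 symbols were tested, with 6 probes, 1 of which is Miox itself. Limma called none between conditions over all durations (0 at unadjusted p under 0.05). The other 5 probes, of 4 genes, all had positive differences between constant hypoxia and normoxia, from 0.06 to 0.30. Their median was 0.14, against -0.04 over all tested probes. The share of positive differences over all tested probes was not counted. Impa1, which frees inositol from its phosphate, had 0.30 (SE 0.16, limma adjusted p = 0.646), and Slc5a11, a sodium-coupled inositol carrier, had 0.30 (SE 0.20, limma adjusted p = 0.680). Impa1 also had a called mean ratio of 0.36 in constant hypoxia (SE 0.11, limma adjusted p = 0.0346), which lost its call without any 1 constant hypoxia array (0.0560 to 0.136). The Impa1 difference was 0.18 without normoxia 1 week B, and that of Slc5a11 ran from 0.10 to 0.49 with 1 array left out.

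Of the tubular calcium handling genes 3 of 11 symbols were tested, with 5 probes that include the tested Calb1 probes. The 2 other probes, of Atp2b1 and Slc8a1, had negative differences for constant hypoxia minus normoxia, against a median of -0.04 over all tested probes. Both were positive for intermittent minus constant hypoxia (0.36 and 0.62, against a median of 0.06). Limma called neither probe in these comparisons (1 at unadjusted p under 0.05 in each). The calcium pump gene Atp2b1 had -0.36 for constant hypoxia minus normoxia (SE 0.13, unadjusted p = 0.0134, limma adjusted p = 0.619), and the exchanger gene Slc8a1 -0.52 (SE 0.34, limma adjusted p = 0.673). Slc8a1 had -3.70 on constant hypoxia 4 weeks A, one of the arrays with disagreeing labels, against -1.08 to -0.50 on the other 5 constant hypoxia arrays. Without that array its difference was -0.05 (limma adjusted p = 0.987), and without 4 weeks B, which leaves that array alone at 4 weeks, it was -0.996 (0.0011). The 2 comparisons share the constant hypoxia arrays. In constant hypoxia both had called mean ratios, -0.39 for Atp2b1 (limma adjusted p = 0.0126) and -1.29 for Slc8a1 (0.0075). The Slc8a1 mean was -0.82 without constant hypoxia 4 weeks A (limma adjusted p = 0.0082), beside uncalled means of -0.68 in intermittent hypoxia and -0.77 in normoxia. It lost its call without constant hypoxia 1 week B (0.0591), and Atp2b1 lost its call without 1 week B, 2 weeks A or 4 weeks A (0.0570 to 0.0737). The list of distal convoluted and connecting tubule genes held the same Calb1 and Slc8a1 probes and nothing else tested.

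Of the collecting duct genes 2 of 14 symbols were tested, each with 1 probe. Fxyd4, a regulator of the sodium pump in collecting duct cells, differed by -0.33 between constant hypoxia and normoxia (SE 0.17, limma adjusted p = 0.630) and Slc4a1, the anion exchanger of acid-secreting and red cells, by -0.12 (0.829). The mean ratio of Fxyd4 in constant hypoxia, -0.38, was called (SE 0.12, limma adjusted p = 0.0371), and the call was lost without any 1 constant hypoxia array other than 4 weeks B (0.0906 to 0.131). For loop of Henle genes 0 of 8 symbols were the single annotated symbol of a probe.

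Podocyte, endothelial, blood and neighbouring tissue markers were examined as cells that a kidney sample can also hold, and limma called none between conditions over all durations (1 endothelial, 1 neighbouring tissue and 1 blood probe reached an unadjusted p under 0.05 in at least 1 comparison). The podocyte genes Cdkn1c and Wt1 had differences of 0.19 and 0.09 between constant hypoxia and normoxia (limma adjusted p of 0.852 and 0.920). Each changed sign with single arrays left out, to -0.07 for Cdkn1c without normoxia 2 weeks B and for Wt1 to -0.03 without normoxia 4 weeks B and to -0.0030 without constant hypoxia 4 weeks A. The endothelial gene Ehd3 had 0.32 on 1 probe for intermittent hypoxia minus normoxia (limma adjusted p = 0.996) and -0.20 on the other for constant hypoxia minus normoxia (0.751). Haemoglobin Hbb-b1 had -0.91 for constant hypoxia minus normoxia (SE 0.41, limma adjusted p = 0.619), and its mean ratio in constant hypoxia, -1.43, was called (limma adjusted p = 0.0115). The Hbb-b1 probe, 14464, is numbered near that of Slc8a1, 14505, which had -3.70 on constant hypoxia 4 weeks A. A local effect shared by these 2 probes was not tested. On that array Hbb-b1 had -4.10, against -1.41 to -0.60 on the other 4 constant hypoxia arrays with a value. Without that array the difference was -0.46 (limma adjusted p = 0.890) and the mean -0.98, and without 4 weeks B the difference was -1.36 (0.0016). Apoa1, made mainly in liver, had -1.53 for intermittent hypoxia minus normoxia (SE 0.53, limma adjusted p = 0.996), with 4.67 on normoxia 1 week B alone, and -0.91 without that array. The part of these markers in the tubule ratios was not tested.

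For each tested probe the 3 probes of other single genes with the highest correlation over at least 15 shared arrays were looked up, as a description. The closest to Lrp2 11897 were Paics (r = 0.83 over 18 arrays), a purine synthesis enzyme, H3f3b (0.83 over 16), a histone, and Eif5a (0.75 over 18), a translation factor. The closest to Lrp2 13687 were Rpf2, Ctnna1 and Lgals8 (0.86 to 0.87 over 15 arrays), and to Miox they were Csrp2, Vps41 and Ing4 (0.65 to 0.67 over 16 arrays).

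Among the Calb1 probes, 4340 was closest to the collecting duct gene Fxyd4 (r = 0.87 over 18 arrays), then to Fundc1 and Rpl12 (0.86 and 0.85 over 15). On the 4-week constant hypoxia arrays Fxyd4 had -0.82 and -0.76, where Calb1 4340 had -0.59 and -0.73. Calb1 9384 was closest to Rpl10, Sar1a and Mavs (0.81 to 0.82 over 15 to 17 arrays). Calb1 1839 was closest to Wdr86, Klhl5 and Akirin2 (0.86 to 0.87 over 15 to 16 arrays), whose probe numbers 1915, 1913 and 1694 lie near its own. Between 4327 and 4874 probes were compared with each, so high values are the top of many.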

How the data were processed

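Kidney cDNA of CD1 mice was hybridised to 18 two-channel cDNA arrays. For every spotted probe the authors deposited a single log2 ratio of its channels. How it was background-corrected, normalized and directed is not stated in the sources used here. Each array was centred on its median over the 6518 tested probes (40.4% of 16128). Probes were named by the platform annotation, in which 9604 probes have 1 symbol, 213 several and 6311 none. The fit used limma 3.58.1 under R 4.3.3 (9 group means, eBayes, prior degrees of freedom 5.62). All p-values are two-sided, with Benjamini-Hochberg adjustment over all tested probes of a comparison. Correlations were tested with 100000 permutations in NumPy 2.4.6, within a condition of 6 arrays exactly, and ranks came from SciPy 1.17.1. Arrays of a group held different animals per the labels. The spot signal behind a ratio is unknown, and precision is limited by how few arrays a group has. The fit was tested on simulated data.

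The genes, gene lists and the Eif2s3y relation were chosen with earlier results of these data known. From each list, called probes were named, otherwise the 2 with the smallest p against normoxia. Lists covered proximal tubule, loop of Henle, distal and connecting tubule, collecting duct, podocyte, endothelium, megalin partners, inositol pathway, calcium handling, neighbouring tissue and blood. Coordinates are left out because the values come without a genome build. Alternatives changed the centring, filter, scale, moderation, block and arrays used.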

Additional observations from a re-analysis of the deposited data

How the results depend on the processing

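Without centring, on the values as deposited, 27 of the condition tests and 8 of the mean ratios of tubule probes were called, because constant hypoxia arrays then differ by their medians. Differences that changed sign there were, for constant hypoxia minus normoxia, -0.58 (Miox), -0.32 (Lrp2 11897), -0.67 (Lrp2 13687) and -0.27 (Lrp2 11897 at 1 week), for intermittent minus constant hypoxia 0.39 (Miox) and 0.35 (Lrp2 11897), and for intermittent hypoxia minus normoxia -0.0451 (Calb1 1839) and -0.0223 (Calb1 4340). Calb1 9384 in intermittent hypoxia was then 0.44 (adjusted p = 0.0739) and, centred on all probes with a value, 0.44 (0.0588). That centring gave -0.0082 (Calb1 1839) and -0.0018 (Calb1 4340) for intermittent hypoxia minus normoxia and -0.0506 (Lrp2 13687) for intermittent minus constant hypoxia.

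With the median of neighbouring probe numbers removed, the Lrp2 11897 mean in intermittent hypoxia was -0.23, the Lrp2 13687 difference between constant hypoxia and normoxia -0.0108, the intermittent hypoxia minus normoxia differences -0.0859 (Calb1 1839) and -0.0012 (Calb1 4340), and the correlation of Calb1 4340 with 9384 0.38. Scaling arrays to 1 spread gave -0.13 (Calb1 1839, intermittent hypoxia minus normoxia) and -0.0964 (Lrp2 13687, intermittent minus constant hypoxia). Averaging probes of a gene gave Lrp2 means of 0.0604 in constant hypoxia, -0.22 in intermittent hypoxia and -0.21 in normoxia, a Calb1 mean of 0.14 in intermittent hypoxia, and Lrp2 differences of -0.0154 (intermittent hypoxia minus normoxia) and -0.29 (intermittent minus constant hypoxia). eBayes with trend and robust options left 1 call among the mean ratios, with Lrp2 11897 at -0.44 (adjusted p = 0.0589) in intermittent hypoxia and -0.49 (0.0621) in normoxia. The unmoderated test gave Calb1 9384 at 0.49 (0.0530). The labels do not say that the letters A and B pair arrays. With the letter as a replicate block, Calb1 9384 in intermittent hypoxia was 0.49 (0.0546), and no other call changed. Without the 2 arrays of disagreeing labels no call on a tubule probe changed, 7 tests of list probes between conditions were called against 1 with them, while the share of all probes called reached 17.4% (intermittent hypoxia minus normoxia, 2 weeks), against 0.138% with them, and Calb1 4340 differed by -0.13 between intermittent hypoxia and normoxia.

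With 1 array left out at a time, the Lrp2 11897 mean was -0.55 to -0.44 in normoxia (call lost in 6 of 18 fits), -0.50 to -0.37 in intermittent hypoxia (5 of 18) and -0.15 to 0.0506 in constant hypoxia. Calb1 9384 in intermittent hypoxia was 0.44 to 0.53 (8 of 17), and without its only 1-week array it could not be fitted. The calls among mean ratios numbered 1 to 3. Lrp2 13687 ran from -0.0346 to 0.22 for constant hypoxia minus normoxia, -0.0292 to 0.23 for intermittent hypoxia minus normoxia and -0.0772 to 0.0881 for intermittent minus constant hypoxia. For intermittent hypoxia minus normoxia Calb1 1839 ran from -0.24 to 0.26, Calb1 4340 from -0.13 to 0.14 and Lrp2 11897 from -0.0042 to 0.12, and for intermittent minus constant hypoxia Calb1 1839 from -0.0825 to 0.42.

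Within constant hypoxia the correlation was -0.68 for Calb1 9384 with Eif2s3y, 0.78 for Calb1 4340 with 9384 and 0.18 for the Lrp2 probes. Within normoxia the first pair had -0.67 and the second 0.88, and within intermittent hypoxia Lrp2 11897 with Miox had -0.40. Where no cause is named here, the cause was not tested. The deposited ratios hold no spot signals, so what signal over background limits is unknown.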
